A study of Homo sapiens with 12 samples.

Results

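HepG2 is a line derived from a human liver tumour. In these cells 47 genes had longer apparent transcripts in every library from cells transfected with CPSF6 siRNA than in any si-NC library. The apparent length of a gene was read from its counts: log2 of normalized count over TPM, minus the median of the same quantity over the spike-ins of that library. TPM divides a gene's reads by the length of the transcripts they were assigned to, so this quantity is higher when reads are assigned to longer transcripts of the gene. Genes needed a mean normalized count of at least 300 and no zero in any library. Of 22148 genes, 8215 passed this filter, and 23 of the 87 spike-ins did. A gene was kept when its lowest apparent length among the 6 siCPSF6 libraries was above its highest among the 6 siNC libraries, which held for 48 genes. NEAT1, a long non-coding RNA with a difference of 1.51 on the log2 scale, was set aside, and since 47 is fewer than the 100 the rule allows, all were taken. The members were thus chosen by these values of apparent length, and all their differences between siCPSF6 and siNC are given as descriptions, with no test.

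The 12 libraries formed 6 groups of 2 biological replicates. Cells received siRNA against CPSF6 (si-CPSF6 in the labels, here siCPSF6) or si-NC (here siNC), an abbreviation that the labels do not expand. Cells were collected 0, 3 and 6 h into a course of 5 µg/ml actinomycin D, which blocks transcription, begun 48 h after transfection. Each library was made for mRNA, with a directional kit, from 5 µg of total RNA that had received ERCC spike-ins. The normalized counts of a library summed to between 19133288 and 33352246, and spike-ins took 1.13% to 1.43% of them. CPSF6 itself had 674 to 810 normalized counts in siCPSF6 libraries and 2082 to 3469 in siNC libraries, with no overlap. All 15 hepatocyte plasma protein genes examined had a mean of at least 1 TPM. Of the 14 genes that mark stromal, endothelial or immune cells, 10 were in the tables and 5 reached a mean of 1 TPM, and the summed level of the 10 was 292 to 554 TPM in siCPSF6 libraries and 427 to 1029 TPM in siNC libraries. LYZ, a gene of myeloid cells, made up most of that sum, at 244 to 956 TPM, while PECAM1, VWF, CDH5, COL1A1 and COL3A1 had means under 1 TPM. The part of this sum in the results was not tested.

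CPSF6 and NUDT21 form cleavage factor Im, which binds TGTA (UGUA in RNA) upstream of cleavage sites and helps the cleavage and polyadenylation machinery use a site. That machinery reads a hexamer, usually AATAAA or ATTAAA, a short way before the end of an mRNA. Loss of cleavage factor Im is known in human cells for a shift of many mRNAs to upstream (proximal) sites, which shortens the 3′ end. Apparent length is a value per gene: splicing, start sites, retained introns and 3′ ends all enter it, and these tables cannot tell them apart.

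Annotated 3′ ends are shown for some members with large differences or with a tested change with time. Each illustrates the signal that an end of that gene carries, and only ends with AATAAA or ATTAAA in the last 50 bases were candidates. The distal ends of MED13L, DOCK6, SYMPK and LRP4, whose differences were larger than those of the members shown, had neither. Each line is 30 bases, 5′ to 3′ on the transcript strand, from GENCODE 29 transcripts on GRCh38. The capitals mark any TGTA and 1 hexamer: the AATAAA nearest the end or, with none in the last 50 bases of the transcript, the ATTAAA nearest it. Distal is the end farthest downstream in the annotation and proximal the farthest upstream, among annotated transcripts of any type. A proximal end is therefore not necessarily a polyadenylation site.
SH3PXD2A distal: aaaactaAATAAAgttttgggcctttttaa
MKNK2 distal: aagatttAATAAAagtcaaaaaacttgctg
ARFGEF2 distal: ggtggtacatcAATAAAattttaaaaagta
EDA distal: ctttgcaAATAAAacgctttccccgtctgt
WTAP distal: aaacctaAATAAAgatttttatTGTAactc
WTAP proximal: TGTAattaaaaactactttATTAAAaaaat
TPM3 distal: ggaagaaATTAAAgggttttttttagactt
TPM3 proximal: tggtttTGTAAATAAAgttttatcggaaca
PTP4A1 distal: aattgaaaATTAAAgactggtttaaaagtg
The windows lie at chr10:103594032-103594061 (minus strand) for SH3PXD2A, chr19:2037469-2037498 (minus) for MKNK2 and chr20:49036664-49036693 (plus) for ARFGEF2. The EDA window lies at chrX:70039435-70039464 (plus), and those of WTAP lie at chr6:159756285-159756314 and chr6:159736689-159736718 (plus). For TPM3 they lie at chr1:154155305-154155334 and chr1:154187260-154187289 (minus), and for PTP4A1 at chr6:63583348-63583377 (plus). In the last 100 bases of the distal transcript, TGTA occurred 4 times in EDA and 3 times each in ARFGEF2 and WTAP.

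The differences were small beside those of shortened genes. Over the 47 genes the median difference in apparent length, siCPSF6 minus siNC, was 0.13 on the log2 scale. The range was 0.03 (MRPL4) to 0.38 (NPIPA9). That median is a 9.25% higher ratio of count to TPM, and the relative change in nt is smaller, as calibrated below. Over all 8215 genes the median was -0.01. The lengthened rule held for 0.584% of genes, NEAT1 included, and its mirror image, every siCPSF6 library below every siNC library, held for 717 genes (8.73%), whose median was -0.37. Among the 47, 16 differed by at least 0.2, 32 by at least 0.1 and 15 by less than 0.1. The spread between replicates, as the SD of apparent length within a group pooled over the 6 groups of 2, had a median of 0.037 over the members, against 0.048 over all 8215 genes. The rule asks for arms that do not overlap and so favours genes with a small spread.

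**Figure D1:**
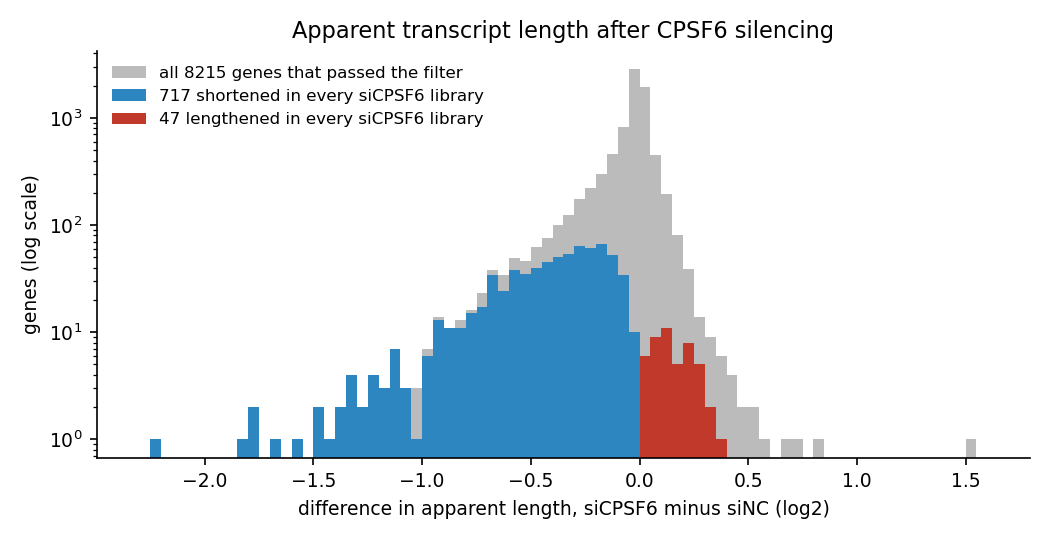
The horizontal axis is the difference in apparent length, siCPSF6 minus siNC, in log2 units, and the vertical axis counts genes on a log scale, for all 8215 genes (grey), the 717 shortened genes (blue) and the 47 lengthened genes (red). The lengthened genes lie between 0.03 and 0.38, and the shortened ones reach -2.23.

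Genes with a single annotated transcript offer no choice of transcript to assign reads to, so their spread leaves out the noise of assignment that other genes carry. In 331 such genes the difference had a median of -0.0019 and its 5th to 95th percentiles ran from -0.0024 to 0.0063. The 23 spike-ins ran from -0.0004 to 0.0071. None of the 47 members has a single annotated transcript. GGCT (0.029) and MRPL4 (0.027) had the smallest differences of the members.

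Membership at the edge was decided by a few thousandths. Just inside were CPSF1, whose lowest siCPSF6 library was 0.0011 above the highest siNC library, MRPL4 with a gap of 0.0017 and NPM2 with 0.0041. Just outside were ZNF428 with a gap of -0.0002, MRPS26 with -0.0007 and MSMO1 with -0.0014.

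**Figure D2:**
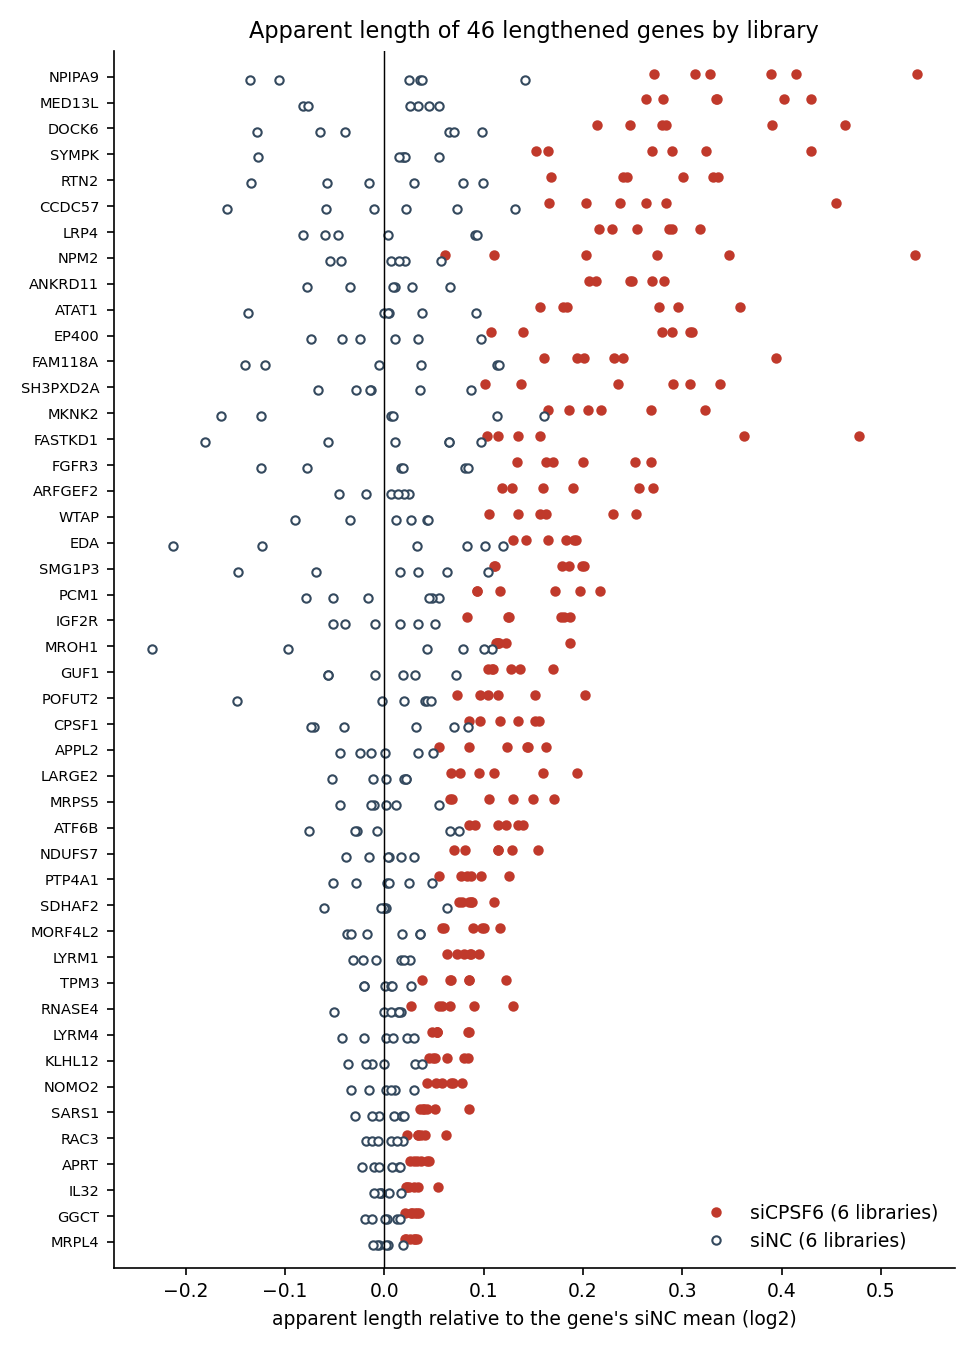
Each row is 1 of 46 lengthened genes and each point a library, placed by its apparent length relative to the gene's siNC mean (log2), with siCPSF6 filled and siNC open. The lowest siCPSF6 point of each gene lies above its highest siNC point, and replicates of NPM2, FASTKD1 and CCDC57 spread more widely than those of ANKRD11, FGFR3 and WTAP.

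To express apparent length in nucleotides, it was calibrated on 315 single-transcript genes of at least 600 nt. For these it returned the annotated length with a median error of 0.823%, and 241 of them (76.5%) lay within 5%. The fit takes length as a fragment term of 315 nt plus a multiple of the count to TPM ratio. A log2 difference is therefore a smaller relative change in nt, most of all in short genes. CCDC57 differed by 20.4% in that ratio, with medians of 725 nt in siCPSF6 and 661 nt in siNC. In all 47 members the apparent length from the mean of 6 libraries lay between the shortest and the longest annotated transcript in both arms. Of 8203 genes matched to the annotation, 7547 had a siCPSF6 mean not above the longest and a siNC mean not below the shortest transcript. Single siCPSF6 libraries reached 11728 nt in SH3PXD2A, 3040 nt in FASTKD1 and 1917 nt in SARS1. Their longest annotated transcripts have 11468, 2967 and 1882 nt. Apparent length is a mean over the transcripts of a gene and is not the length of any single RNA.

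SYMPK encodes symplekin, the scaffold of the cleavage and polyadenylation complex, and lies at chr19:45815410-45863290 on the minus strand. Its apparent length was 3448, 3737 and 4111 nt (lowest, median and highest) in siCPSF6 libraries, against 2895, 3171 and 3242 nt in siNC libraries. The difference was 0.14 at 0 h, 0.26 at 3 h and 0.42 at 6 h (log2), where the pooled replicate SD was 0.061. SYMPK was lower in siCPSF6 by TPM, with a lowest, median and highest level of 19.5, 21.7 and 24.1 TPM, against 27.9, 28.9 and 29.5 TPM in siNC, with no overlap. In normalized count the arms overlapped, at 1281 to 2794 in siCPSF6 and 1524 to 2955 in siNC. The difference was -0.16 in count and -0.42 in TPM (log2), and TPM is the count divided by the length on which SYMPK was chosen.

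CPSF1 encodes the largest subunit of the complex that recognises the polyadenylation hexamer. Its apparent length was 1994, 2041 and 2077 nt in siCPSF6, against 1819, 1893 and 1993 nt in siNC, so that the arms almost touch. Its level was 83.5, 117 and 128 TPM in siCPSF6, against 84.5, 132 and 151 TPM in siNC, and the arms overlapped.

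Of the 22 genes of the cleavage and polyadenylation machinery in the list used here, 18 passed the filter. SYMPK and CPSF1 were lengthened, NUDT21 and CPSF2 (another hexamer-complex subunit) were shortened with differences of -1.43 and -0.37, and 14 were neither. CPSF6 itself differed by 0.48 and was neither, since its libraries overlapped. With 0.584% of genes lengthened, lists of this size would hold few or none, and none was lengthened in the others: 0 of 12 reported 3′ UTR targets of cleavage factor Im, 0 of 29 SR proteins and hnRNPs, 0 of 6 splicing kinases, 0 of 15 plasma protein genes and 0 of 4 markers of other cell types. In the first 2 of these lists 3 and 8 genes were shortened, where 8.73% of all genes were.

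WTAP encodes a subunit of the complex that writes N6-methyladenosine on mRNA. Its apparent length was 1946, 2008 and 2122 nt in siCPSF6, against 1739, 1852 and 1878 nt in siNC. The value lies well below the 3656 nt of the transcript that ends at the distal site printed above and well above the 635 nt of the one that ends at the proximal site. Both ends carry a hexamer. The difference was 0.20 at 0 h, 0.22 at 3 h and 0.10 at 6 h (log2; replicate SD 0.020).

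The regulators of transcription and chromatin numbered 6, with differences of 0.09 to 0.34 and a median of 0.24. MED13L, of the kinase module of the Mediator complex, had 6814, 7144 and 7611 nt in siCPSF6, against 5432, 5842 and 5939 nt in siNC. EP400, an ATPase of a chromatin remodelling complex, had 7260, 8171 and 8307 nt in siCPSF6, against 6442, 6733 and 7212 nt in siNC. In ANKRD11, which encodes a chromatin regulator, the values were 3805, 3910 and 3993 nt in siCPSF6, against 3183, 3361 and 3483 nt in siNC. The arms of MED13L and ANKRD11 lay well apart, while the lowest siCPSF6 library of EP400 came close to its highest siNC library.

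The levels of these regulators are set beside their lengths. MED13L differed by 0.34 in apparent length, by 0.34 in normalized count and by 0.00 in TPM (log2, siCPSF6 minus siNC). For EP400 the count difference was -0.01 and the TPM difference -0.24, and for ANKRD11 they were 0.10 and -0.14. MORF4L2, a subunit of histone acetyltransferase complexes, and ATF6B, an endoplasmic reticulum stress transcription factor, differed in length by 0.09 and 0.11. NPM2, a histone chaperone, differed by 0.25 with a replicate SD of 0.15.

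The signalling, receptor and trafficking genes numbered 14, with differences of 0.03 to 0.31 and a median of 0.18. SH3PXD2A, a scaffold of invadopodia, had 9998, 11147 and 11728 nt in siCPSF6, against 8937, 9255 and 9903 nt in siNC, and its transcript at the distal site is annotated at 11468 nt. LRP4, a receptor of the LDL receptor family, had 4870, 5046 and 5203 nt in siCPSF6, against 4021, 4178 and 4497 nt in siNC. DOCK6, an exchange factor for Rac and Cdc42, had 3278, 3420 and 3837 nt in siCPSF6, against 2652, 2894 and 3049 nt in siNC. The medians of these 3 genes were apart by 526 nt (DOCK6) to 1892 nt (SH3PXD2A), and the arms do not overlap.

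ARFGEF2, an exchange factor for ARF proteins at the Golgi, has 2 annotated transcripts, of 245 and 8852 nt. Its apparent length was 7209, 7482 and 7977 nt in siCPSF6, against 6465, 6710 and 6774 nt in siNC. For MKNK2, a kinase that phosphorylates the cap-binding factor eIF4E, the values were 2823, 2906 and 3113 nt in siCPSF6, against 2311, 2564 and 2816 nt in siNC. FGFR3, a receptor for fibroblast growth factors, had 3618, 3737 and 3941 nt in siCPSF6, against 3078, 3362 and 3506 nt in siNC. Smaller differences were seen in EDA (0.17), a TNF family ligand, IGF2R (0.15), the receptor for IGF2 and mannose 6-phosphate, and APPL2 (0.12), an endosomal adaptor. PTP4A1, a protein phosphatase, differed by 0.09, KLHL12, an adaptor of a ubiquitin ligase, by 0.06, RAC3, a small GTPase, by 0.04 and IL32, a cytokine, by 0.03.

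**Figure D3:**
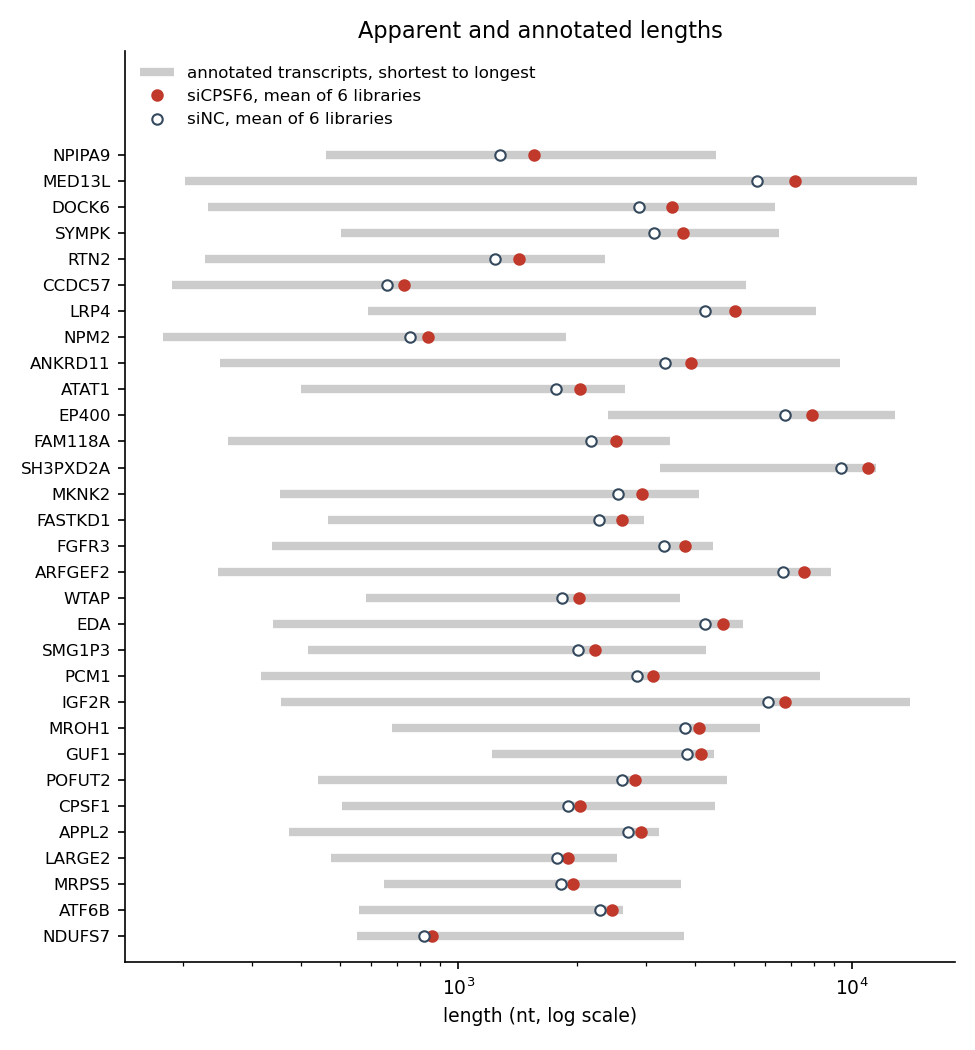
For 31 of the 32 members with a difference of at least 0.1, the horizontal axis gives length in nt on a log scale: grey bars span the shortest to the longest annotated transcript and points give the apparent length from the mean of 6 libraries in siCPSF6 (filled) and siNC (open). The apparent lengths lie inside the bars, and those of SH3PXD2A are near the longest annotated transcript.

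Among cytoskeletal genes, ATAT1, the α-tubulin acetyltransferase, differed in apparent length by 0.24 and CCDC57, a centrosomal protein, by 0.27. PCM1, the scaffold of centriolar satellites, differed by 0.15, and TPM3, a tropomyosin that lines actin filaments, by 0.08. CCDC57 had the largest replicate SD of these, 0.12.

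The mitochondrial genes numbered 8, with differences of 0.03 to 0.22 and a median of 0.10. FASTKD1, of a family that acts on mitochondrial RNA, differed by 0.22 with a replicate SD of 0.16. GUF1, a mitochondrial translation factor, differed by 0.13, MRPS5 and MRPL4, proteins of the mitochondrial ribosome, by 0.12 and 0.03, and NDUFS7, a core subunit of complex I, by 0.11. SDHAF2, an assembly factor of complex II, differed by 0.09, LYRM4, needed for iron-sulphur cluster assembly, by 0.06 and LYRM1, a LYR motif protein, by 0.08. By mean TPM, 7 of the 8 were lower in siCPSF6 than in siNC and FASTKD1 was higher, where 59.6% of members and 43.9% of all genes were lower. Only NDUFS7 and LYRM4 of the 7 were lower without overlap between the arms.

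The remaining members act in the endoplasmic reticulum, in metabolism or in roles little described. RTN2, a reticulon of the endoplasmic reticulum, differed by 0.27, and POFUT2 and LARGE2, glycosyltransferases, both by 0.12. APRT, the enzyme of adenine salvage, differed by 0.04, GGCT, a γ-glutamylcyclotransferase, by 0.03, RNASE4, a secreted ribonuclease, by 0.07, and SARS1, the cytosolic seryl-tRNA synthetase, by 0.05. FAM118A and MROH1, genes of little described function, differed by 0.24 and 0.13. NPIPA9 (0.38), SMG1P3 (0.16), a pseudogene of the NMD kinase SMG1, and NOMO2 (0.06) have near-identical copies on chromosome 16, so their reads may be split between copies and their values are uncertain.

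The length difference was not of the same size at each time in actinomycin D. The median difference over members was 0.12 at 0 h, 0.16 at 3 h and 0.13 at 6 h. Over all 8215 genes the median also moved, from -0.026 at 0 h to -0.0009 at 3 h and -0.010 at 6 h. The difference was larger at 6 h than at 0 h in 34 of 47 members, against 5018 of all 8215 genes. EP400 had 0.14, 0.22 and 0.36 at 0, 3 and 6 h, and MKNK2 had 0.13, 0.20 and 0.35. EDA had 0.04 at 0 h and 0.23 at both later times. FGFR3 had 0.24, 0.29 and 0.07, and ATF6B had 0.17, 0.12 and 0.06, smallest at 6 h. With 2 libraries in a group these time patterns were not tested.

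What the members share in the annotation is described here with no test. Of the 45 members with more than 1 annotated end, 34 (75.6%) had AATAAA or ATTAAA in the last 50 bases of the distal transcript, against 75.3% of all genes that passed the filter and had such ends. At the proximal end it was 6 of 45 (13.3%), against 13.8%. TGTA lay in the last 100 bases of the distal transcript in 23 of 45 (51.1%), against 53.5% of all genes and 58.8% of shortened genes. The motifs were searched as written, on the transcript strand only, and TGTA can share letters with AATAAA. The distance between the outermost annotated ends had a median of 24520 bases in members, against 15550 bases in all genes and 24200 bases in shortened genes. These are ends of transcripts of any type, retained-intron ones included, so the distance need not lie between polyadenylation sites. An annotated retained-intron transcript was present in 33 of 47 members (70.2%), against 63.8% of all genes and 66.2% of shortened genes. The members had a median of 11 annotated transcripts, against 9 in all genes and 10 in shortened genes. Another annotated gene overlapped 35 of the 47 (74.5%), against 70.7% of all genes, and whether reads were counted by strand is not given in the sources used here.

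Longer apparent transcripts went with higher levels in some members and lower levels in others. The median difference in normalized count was 0.07 on the log2 scale, with 25 members higher and 22 lower in siCPSF6, and in TPM it was -0.11, with 19 higher and 28 lower. Over all 8215 genes the TPM median was 0.07. The sign of the count and TPM differences was opposite in 6 members. This follows in part from the units, since TPM is the count divided by length, so a longer apparent length lowers TPM relative to the count.

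In 5 members the TPM of every siCPSF6 library was above that of every siNC library, against 9.95% of all genes, and in 7 it was below, against 7.11%. PTP4A1, with the largest difference upwards, had 121, 147 and 192 TPM in siCPSF6, against 39.8, 77.9 and 109 TPM in siNC. IGF2R had 75.8, 87.5 and 105 TPM in siCPSF6, against 45.4, 47.9 and 66.9 TPM in siNC. FGFR3 had 77.3, 81.2 and 94.3 TPM in siCPSF6, against 47.3, 55.2 and 74.1 TPM in siNC. LRP4 and ATAT1 were the others above, with TPM differences of 0.42 and 0.40.

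CCDC57 was the lowest, at 41.7, 43.5 and 50.9 TPM in siCPSF6, against 103, 110 and 126 TPM in siNC. NDUFS7 had 58.8, 62.6 and 72.7 TPM in siCPSF6, against 87.4, 99.3 and 115 TPM in siNC. DOCK6 had 8.72, 9.50 and 11.6 TPM in siCPSF6, against 13.9, 15.0 and 17.2 TPM in siNC. NPIPA9, SYMPK, APPL2 and LYRM4 were the other 4 without overlap. Of these lower members only CCDC57 also had arms apart in normalized count. In MKNK2, by contrast, the arms overlapped over the 3 times: its 0 h libraries had 38.2 and 39.8 TPM in siCPSF6, against 21.0 and 18.5 TPM in siNC, and its 6 h libraries had 20.5 and 17.3 TPM, against 21.8 and 17.4 TPM.

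**Figure D4:**
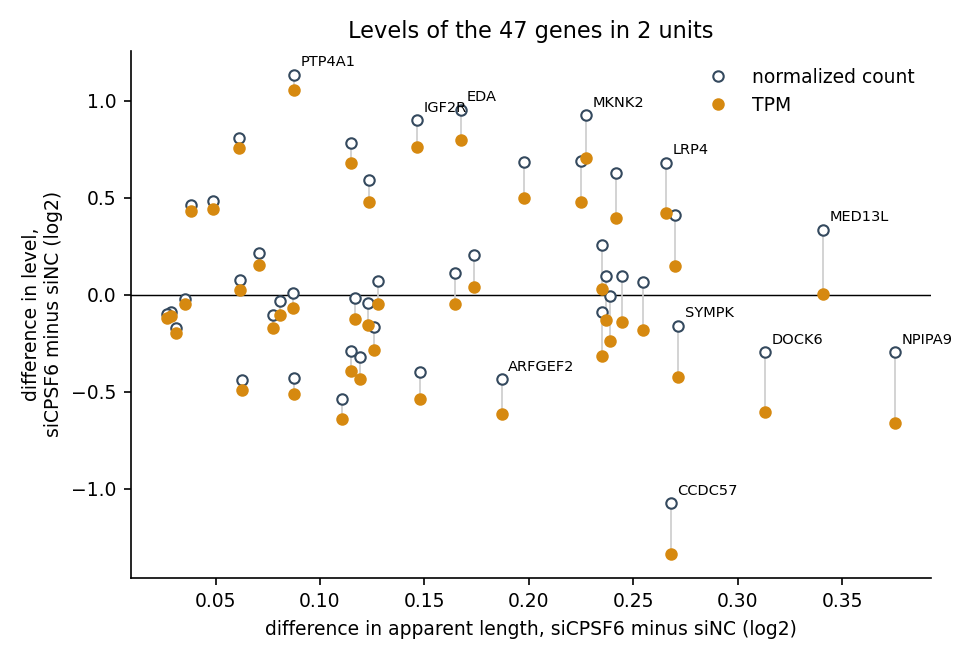
Each member is placed by its difference in apparent length on the horizontal axis and by its difference in level on the vertical axis (both log2, siCPSF6 minus siNC), open for normalized count and orange for TPM, joined by a line. Levels reach from CCDC57 at the bottom (-1.07 in count, -1.33 in TPM) to PTP4A1 at the top (1.13 and 1.05).

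Changes with time in actinomycin D did not enter the rule and were tested with limma on log2(normalized count + 1), adjusted by Benjamini-Hochberg over 12939 genes. All 47 members passed the filter on the mean there. In siCPSF6, 41 of 47 members were called between 6 h and 0 h, 36 higher and 5 lower, where 77.4% of all genes tested were called (49.8% higher and 27.6% lower). In siNC, 41 were called, 33 higher and 8 lower, where the share was 79.3% (48.6% higher and 30.7% lower). Among the 8215 genes abundant enough to be members the shares called were 84.7% in siCPSF6 and 86.2% in siNC, close to the share of the members. By direction, 59.6% of those genes were higher and 25% lower in siCPSF6, and 58.1% were higher and 28.1% lower in siNC. The median change of the members was 0.79 in siCPSF6 and 0.80 in siNC, against 0.45 and 0.44 for those 8215 genes.

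These directions are relative to the scale. Scaling to the spike-ins moved the median change of all genes tested from 0.35 to -0.56 in siCPSF6 and from 0.31 to -0.72 in siNC, since the spike-ins themselves were higher by 0.94 and 1.01 at 6 h. On that scale 27 members were called in siCPSF6, 7 higher and 20 lower, where 59.3% of genes were called (4.17% higher and 55.2% lower). In siNC it was 27, 9 higher and 18 lower, where 68.3% were called (8.32% higher and 60.0% lower). Median-ratio scaling called 28 members higher and 10 lower in siCPSF6, where 37.3% and 35.4% of genes were, and 30 higher and 12 lower in siNC, where 38.8% and 37.7% were. The TPM table called 14 higher and 18 lower in siCPSF6, where 14.3% and 48.5% of genes were, and 13 higher and 17 lower in siNC, where 16.2% and 53.2% were. Spike-ins were added to a fixed mass of total RNA, so these values are per mass of RNA and not per cell. In bulk libraries, fewer cells with a given RNA and less of it in each cell cannot be told apart. With 2 replicates per group, p-values measure the spread between these cultures.

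WTAP had the largest fall in both arms. It had 653 and 826 normalized counts at 6 h and 2520 and 2577 at 0 h in siCPSF6, and 637 and 758 at 6 h and 1902 and 1914 at 0 h in siNC. The change was -1.79 ± 0.11 (log2, SE; limma adjusted p = 1.6e-09) in siCPSF6 and -1.46 ± 0.11 (limma adjusted p = 8.4e-09) in siNC, and it was also lower with spike-in scaling, by -2.71 and -2.48. PCM1, MRPS5, EDA and MED13L also fell in both arms on both scales, with changes in the deposited scale of -0.72, -0.31, -0.30 and -0.30 in siCPSF6 and -0.32, -0.39, -0.44 and -0.51 in siNC. In siCPSF6 the MED13L call (limma adjusted p = 0.017) was lost without either 0 h replicate or without the second 6 h replicate, the MRPS5 call without the first 0 h replicate and the EDA call without the second. The PCM1 call in siNC was lost without the first replicate at 0 h or at 6 h.

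SMG1P3 had the largest rise in both arms, with 2941 and 2927 normalized counts at 6 h and 562 and 526 at 0 h in siCPSF6, and 1962 and 1892 at 6 h and 545 and 626 at 0 h in siNC. Reads of SMG1P3 may be split between near-identical copies, as said above. RAC3 rose by 1.47 in siCPSF6 and 1.49 in siNC, and MROH1 by 1.42 and 1.44. On the deposited scale the mitochondrial members did not move together: LYRM1, LYRM4, MRPL4, NDUFS7 and GUF1 were higher at 6 h in both arms, MRPS5 was lower in both and FASTKD1 was called in neither. SDHAF2 was called higher in siCPSF6 and not in siNC, a difference that was not called itself (limma adjusted p = 0.26), and its call was lost without either 0 h replicate or the second 6 h replicate of siCPSF6. With spike-in scaling all 8 were on the lower side at 6 h in both arms. FASTKD1 (-1.04 in siCPSF6 and -1.22 in siNC), MRPS5 (-1.23 and -1.42) and SDHAF2 (-0.64 and -0.99) were called lower in both. LYRM1, LYRM4, MRPL4, NDUFS7 and GUF1 stood at -0.062 to -0.58 on that scale, and MRPL4 in siCPSF6 was called lower at -0.42 (limma adjusted p = 0.015), as was GUF1 at -0.43 in siCPSF6 (limma adjusted p = 0.032) and at -0.58 in siNC (limma adjusted p = 0.0040).

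The change from 0 to 6 h differed between the arms for 10 members by limma, 3 higher and 7 lower in siCPSF6 than in siNC, where 24.4% of all genes tested (12.0% higher and 12.4% lower) and 31.6% of the 8215 abundant genes were called. With the replicate number as a block 17 members were called (34.0% of genes), the 10 and LRP4, WTAP, POFUT2, ATF6B, MORF4L2, NOMO2 and IL32. Without the first 0 h replicate of siCPSF6 the number was 6. With spike-in scaling 3 were called (8.17% of genes), and in TPM 4 (12.8%). The time course from 0 to 3 h differed for 0 members by limma, with 5 at an unadjusted p under 0.05, where 2.99% of genes were called (2.26% higher and 0.734% lower). With spike-in scaling it was again 0, with 0 at an unadjusted p under 0.05 by limma (0.966% of genes called). With the replicate block 2 were called there (7.92% of genes), FGFR3 at -0.32 (limma adjusted p = 0.018) and CPSF1 at -0.30 (limma adjusted p = 0.043).

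PTP4A1 rose in siCPSF6 and fell in siNC on the deposited scale, though the rise was not called with median-ratio scaling (0.058) or without the first 0 h replicate of siCPSF6 (0.24). At 6 h it had 7566 and 8451 normalized counts and at 0 h 5910 and 6753 in siCPSF6, against 2440 and 2995 at 6 h and 3636 and 3455 at 0 h in siNC. The difference between the changes was 0.73 ± 0.13 (log2, SE; limma adjusted p = 0.0012), and with spike-in scaling, where it was lower at 6 h in both arms, 0.84 (limma adjusted p = 0.022). SMG1P3 differed by 0.71 ± 0.12 (limma adjusted p = 0.00080). SH3PXD2A was called lower at 6 h in siNC, at -0.33, and was at 0.10 in siCPSF6, a difference of 0.43 ± 0.11 (limma adjusted p = 0.012). This difference was not called with spike-in scaling or in TPM, nor without the first 0 h replicate of siCPSF6 or the second 0 h replicate of siNC. At 3 h SH3PXD2A had 1752 and 1885 normalized counts in siCPSF6, against 1682 and 1863 at 0 h. In siNC it had 2298 and 2547 at 3 h, against 1902 and 2006 at 0 h.

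MKNK2 had the largest difference downwards. At 6 h it had 1888 and 1529 normalized counts and at 0 h 1918 and 2016 in siCPSF6, against 1576 and 1296 at 6 h and 900 and 827 at 0 h in siNC. The siNC libraries at 3 h were 823 and 661, so the higher siNC level was seen at 6 h and not at 3 h. The difference was -0.94 ± 0.21 (log2, SE; limma adjusted p = 0.0083), -0.83 with spike-in scaling (limma adjusted p = 0.011) and -1.03 in TPM (limma adjusted p = 0.012).

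TPM3, APRT and MRPL4 rose in both arms on the deposited scale and rose less in siCPSF6. TPM3 had 11890 and 12601 normalized counts at 6 h and 6567 and 6623 at 0 h in siCPSF6, against 15482 and 16218 at 6 h and 6155 and 6035 at 0 h in siNC, a difference of -0.49 ± 0.09 (log2, SE; limma adjusted p = 0.00095). APRT differed by -0.46 ± 0.10 (limma adjusted p = 0.0039) and MRPL4 by -0.42 ± 0.11 (limma adjusted p = 0.0098). None of these 3 was called with spike-in scaling or in TPM.

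LYRM4 (-0.37, limma adjusted p = 0.046), GGCT (-0.29, limma adjusted p = 0.037) and PCM1 (-0.40, limma adjusted p = 0.035) were called by a small margin, and each lost its call with spike-in scaling, in TPM and without some of the libraries. Of the 7 lower members, LYRM4 and MRPL4 are mitochondrial, TPM3 and PCM1 belong to the cytoskeleton and APRT and GGCT are metabolic enzymes, while MKNK2 is a kinase.

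**Figure D5:**
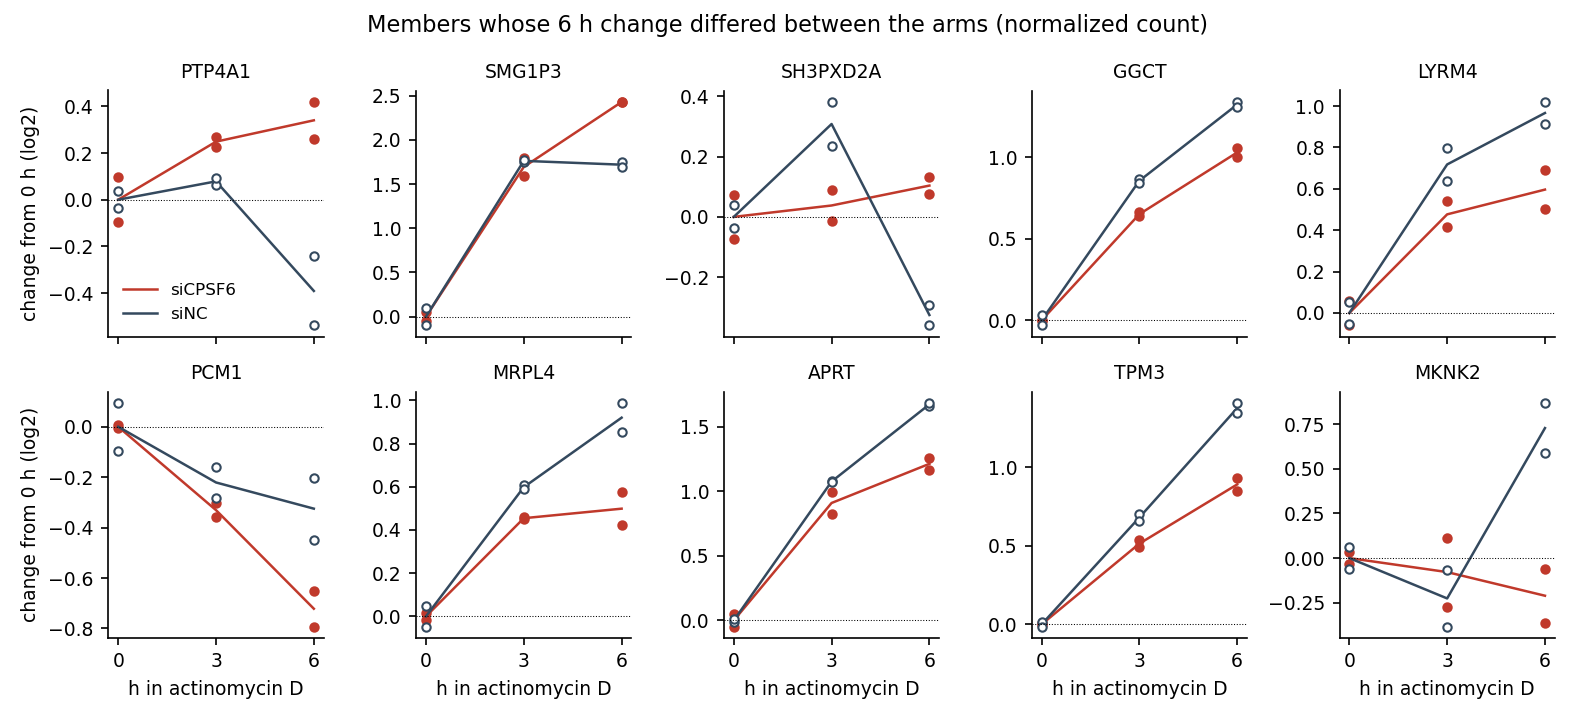
For the 10 members whose change differed between the arms, the horizontal axis is hours in actinomycin D and the vertical axis the change from the 0 h mean of the arm in log2(normalized count + 1). Points are libraries, filled for siCPSF6 and open for siNC, and lines join group means. PTP4A1 and SH3PXD2A part at 6 h with siCPSF6 above, and MKNK2 parts at 6 h with siNC above. In SH3PXD2A siNC lies above siCPSF6 at 3 h.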

How the data were processed

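RNA-seq of 12 HepG2 libraries was used. STAR, RSEM and hg38 are named in the submitters' processing notes, without versions or a gene annotation. One deposited table is a score: judging by its values, the authors brought the counts of each library to the same upper quartile and rounded them, so tests for raw counts were not run. The second table holds TPM deposited by the authors. The 47 members, their roles and the gene lists were chosen with earlier results of these data known. Named members follow a rule: the 30 largest differences, the genes at the edge and up to 6 of each direction per test; others are named to account for the members, 1 of which is not reported here. Apparent length, its calibration, annotated ends and motifs (GENCODE 29) were computed in Python 3.11.15 with pandas 2.3.3.

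Changes with time were tested with limma 3.58.1 (R 4.3.3; trend and robust) on log2(normalized count + 1), for 12939 genes with a mean of at least 20, in a fit of 6 group means, at a threshold of 0.05 after Benjamini-Hochberg adjustment. On simulated data for the difference between arms, over 12982 genes, 90 of 100 genes with a planted 2-fold change were recovered. Of 100 with a 1.4-fold change 39 were, and there were 5 false calls. The simulation used the same dispersion for all genes and independent libraries, with changes planted only in siCPSF6 at 6 h. Its counts need not hold for these data. Replicates correlated at 0.991 to 0.993. Libraries with the same number deviated together (r = 0.11 to 0.24 in the 15 pairs of groups). The main fit did not pair them. Only the replicate block took the numbers to pair the libraries, on the values alone. Alternatives were pseudocounts, filters, spike-in and median-ratio scaling, the TPM table, limma without its trend and robust settings, a replicate block, only the groups compared and each library left out in turn.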

Additional observations from a re-analysis of the deposited data

Results flagged for a closer look

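The change from 0 to 6 h in actinomycin D differed between the arms, siCPSF6 minus siNC, by a limma test of the difference itself in 10 of the 47 genes, where 24.4% of all genes tested and 31.6% of the 8215 abundant ones were called. On the log2 scale the differences were 0.73 for PTP4A1, 0.71 for SMG1P3 and 0.43 for SH3PXD2A, higher in siCPSF6. They were -0.94 for MKNK2, -0.49 for TPM3, -0.46 for APRT, -0.42 for MRPL4, -0.40 for PCM1, -0.37 for LYRM4 and -0.29 for GGCT, lower in siCPSF6. Those of PTP4A1, SMG1P3 and MKNK2 also passed with spike-in scaling and in TPM, and the other 7 did not. The reads of SMG1P3 may be split between near-identical copies, so its values are uncertain.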

How the results depend on the processing

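For the 6 h against 0 h calls, spike-in scaling gave 27 members in siCPSF6, 27 in siNC and 3 for the difference between the arms, and the TPM table gave 4 for the difference. The replicate block gave 17 members for the difference at 6 h and 2 at 3 h, against 10 and 0. Leaving out 1 library gave 35 to 41 members in siCPSF6, 39 to 41 in siNC, 6 to 13 for the difference at 6 h and 0 to 0 at 3 h; the lowest, 6, was without replicate 1 of siCPSF6 at 0 h. Pseudocounts, filters, median-ratio scaling, limma without trend or robust settings and only the groups compared kept these counts within 1.5 times. Of the 36 members called higher at 6 h in siCPSF6 on the deposited scale, 18 were below 0 with spike-in scaling, 13 in TPM and 3 with median-ratio scaling, and of the 33 in siNC, 17, 10 and 0 were. Values follow for those whose change at 6 h the report describes. In siCPSF6 spike-in scaling gave -0.43 for GUF1, -0.13 for NDUFS7, -0.58 for PTP4A1, -0.64 for SDHAF2, -0.13 for LYRM1, -0.028 for TPM3, -0.32 for LYRM4 and -0.42 for MRPL4. TPM gave -0.27 for GUF1, -0.44 for PTP4A1, -0.46 for SDHAF2, -0.12 for LYRM4 and -0.24 for MRPL4, and median-ratio scaling gave -0.0059 for SDHAF2. In siNC spike-in scaling gave -0.58 for GUF1, -0.14 for NDUFS7, -0.32 for LYRM1, -0.062 for LYRM4 and -0.11 for MRPL4, and TPM gave -0.40 for GUF1 and -0.17 for LYRM1. The cause was not tested. None of the 10 differences between the arms turned sign.

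The number of lengthened genes was 2082 with apparent length taken relative to the median of all genes, with a median difference of 0.20 over the 47. That reference shifted the median of all genes to 0.06, and 281 of 331 genes with a single annotated transcript then counted as lengthened. With only the 0 h libraries, 2 against 2, the number was 968, of which 55 have a single transcript. Leaving out 1 library gave 51 to 69 genes, which hold the 47 by construction, and medians of 0.12 to 0.15. A minimum difference of 0.1, added after seeing the data, left 32.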
